A study of Mus musculus with 12 samples.

Results

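ESRRB occupancy was examined at 10 genes for matrix proteins and receptors of the primitive endoderm, namely Lama1, Lamb1, Lamc1, Col4a1, Col4a2, Sparc, Amn, Cubn, Dab2 and Pdgfra. A region belonged to a gene when that gene was the nearest RefSeq protein-coding gene and the centre of the region lay inside it or within 100 kb of it. This gave 127 of the 86201 regions counted by chromatin immunoprecipitation and sequencing (ChIP-seq) with an antibody to ESRRB. The study had 12 mouse embryonic stem cell samples from 2 lines, titled NanogKO:Esrrb and NanogKO:Esrrb:Nanog, with 3 ESRRB ChIP and 3 input libraries each. The lines are called without Nanog and with Nanog here. All 12 samples carried the same cell line label, N{delta}:cE:iN. Cells grew untreated in serum and LIF, and chromatin was fixed with formaldehyde, in some samples followed by DSG. The comparison between the lines addresses where ESRRB signal differs when Nanog is present. The labels do not give what drives Esrrb or Nanog in these lines, whether a line is 1 clone, which samples had the second fixation, or whether a line's libraries are separate cultures. The part of fixation in any difference was not tested. P-values reflect library-to-library spread that may be technical only. The input libraries were not used here. The assay measures protein on DNA and no RNA, so marker expression could not check the cell type.

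The primitive endoderm is the extraembryonic layer that forms next to the epiblast in the blastocyst, and embryonic stem cells derive from the epiblast side. Its cells secrete a thick basement membrane, a sheet built from a laminin network and a type IV collagen network. They also take up maternal proteins through endocytic receptors and carry the PDGF receptor alpha on their surface. ESRRB is a nuclear receptor without a known natural ligand that binds DNA mainly at the extended nuclear receptor site TNAAGGTCA. NANOG is a homeodomain transcription factor that holds back primitive endoderm differentiation in these cells.

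Sequences are shown first for promoter windows that an ESRRB region overlapped, because their regions are the ones whose letters can be shown beside the data. RefSeq promoter windows of GRCm38.p6 (mm10) reach from 250 bases before to 50 bases after a transcript's start. They were found for 8 of the 10 genes, with 9 windows in all; Lama1 and Lamc1 had none. A region overlapped 5 of the 9 windows, against 22.8% of the 32851 windows of all genes. Bases in capitals lie inside the ESRRB region, and each window reads 5′ to 3′ on the strand of the gene. The windows are Amn chr12:111270846-111271145 (plus strand), Lamb1 chr12:31265043-31265342 (plus strand), the internal start of Dab2 chr15:6386498-6386797 (plus strand) and Col4a2 chr8:11312555-11312854 (plus strand).
Amn: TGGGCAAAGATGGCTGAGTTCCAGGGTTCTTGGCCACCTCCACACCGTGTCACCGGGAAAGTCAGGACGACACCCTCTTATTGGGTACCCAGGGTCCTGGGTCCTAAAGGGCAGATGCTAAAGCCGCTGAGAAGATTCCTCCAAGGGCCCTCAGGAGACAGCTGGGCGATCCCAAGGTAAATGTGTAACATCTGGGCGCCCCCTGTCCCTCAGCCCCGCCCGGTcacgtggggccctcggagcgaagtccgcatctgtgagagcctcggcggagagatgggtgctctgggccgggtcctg
Lamb1: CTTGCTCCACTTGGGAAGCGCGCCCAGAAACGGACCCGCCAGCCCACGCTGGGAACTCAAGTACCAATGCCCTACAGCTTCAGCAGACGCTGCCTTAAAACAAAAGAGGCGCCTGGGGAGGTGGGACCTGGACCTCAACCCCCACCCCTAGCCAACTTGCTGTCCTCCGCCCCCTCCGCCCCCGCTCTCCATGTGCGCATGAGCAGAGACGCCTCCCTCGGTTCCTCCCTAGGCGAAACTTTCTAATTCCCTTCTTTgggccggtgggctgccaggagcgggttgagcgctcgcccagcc
Dab2: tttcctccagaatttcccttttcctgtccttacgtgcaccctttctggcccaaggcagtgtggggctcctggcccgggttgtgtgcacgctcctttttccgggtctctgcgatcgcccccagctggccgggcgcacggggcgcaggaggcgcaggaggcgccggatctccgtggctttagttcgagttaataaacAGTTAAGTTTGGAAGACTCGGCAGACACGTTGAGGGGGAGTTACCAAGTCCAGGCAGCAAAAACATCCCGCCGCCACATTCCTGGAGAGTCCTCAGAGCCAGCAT
Col4a2: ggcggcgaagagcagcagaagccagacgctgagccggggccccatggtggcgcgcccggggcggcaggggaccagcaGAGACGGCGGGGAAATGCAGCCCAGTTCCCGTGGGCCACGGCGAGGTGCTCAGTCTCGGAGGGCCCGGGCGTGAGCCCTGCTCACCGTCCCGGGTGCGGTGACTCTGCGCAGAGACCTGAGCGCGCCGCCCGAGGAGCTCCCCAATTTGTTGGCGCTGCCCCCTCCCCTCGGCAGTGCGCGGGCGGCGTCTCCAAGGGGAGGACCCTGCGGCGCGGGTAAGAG
The region in the Col4a2 window also overlapped 84 bases of the Col4a1 window on the other strand, since both genes start head to head, and its centre lies in Col4a1. On either strand, none of the 9 windows held TNAAGGTCA or the shorter AGGTCA that is part of it. Among all 32851 windows, 1.28% held TNAAGGTCA and 16.3% held AGGTCA, and among the 7484 windows overlapped by a region the shares were 1.68% and 19.4%. The regions overlapping these windows held 2.61 to 8.23 CPM (counts per library scaled to a common total) without Nanog, beside a median of 6.70 CPM over all regions, and none passed the test between the lines. The motif matches describe letters in windows of 300 bases and say nothing on binding outside them.

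Library totals over all regions were 2734338, 3600055 and 5193707 reads without Nanog and 6689166, 8382646 and 7834773 with Nanog. A region of the 10 genes had a median of 19, 27 and 31 reads in the libraries without Nanog and of 38, 53 and 46 with Nanog, so counting error was larger without Nanog. Counts of any 2 libraries of a line differed by more than sampling noise (chi-square divided by its degrees of freedom, 1.34 to 2.53), so none was counted as a duplicate. CPM values use TMM scaling factors, and libraries are named A, B and C as in the count table.

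Of the 127 regions, 9 rose with Nanog and 24 fell, while 93 did not pass the test and 1 was too low to be tested (quasi-likelihood test of edgeR, called at an adjusted p under 0.05 after Benjamini-Hochberg adjustment over 84892 regions). Among all tested regions, 9.42% rose and 9.78% fell; among the 126 tested here, 7.14% rose and 19.0% fell. The region left untested, 3.9 kb upstream of Sparc, had 3, 1 and 6 reads without Nanog and 10, 14 and 15 with Nanog. The median log2 fold change, with over without Nanog, was -0.11 over the regions of the 10 genes and -0.01 over all tested regions. Over the 10 genes it was -0.0043 without library B without Nanog (0.01 over all regions) and 0.03 over the 45 regions with a mean count of at least 50 (-0.02 over all such regions). In 59 of the 127 regions the libraries of the lines did not overlap, with 26 above and 33 below, or 46.5%; over all regions the share was 33.6%. Both directions occurred within 6 genes, 1 gene (Lama1) had only rises and 3 genes (Sparc, Amn and Col4a2) had only falls among the calls. How often genes had calls in both directions was not counted over all genes. The 10 genes had 5 to 19 regions each, beside a median of 3 over all genes with a region. The counts of rises and falls moved with the libraries used, and so did those over all regions. Leaving out 1 library gave 3 to 11 rises and 17 to 22 falls at the 10 genes, beside 5.88% to 10.9% of all tested regions that rose and 5.64% to 10.5% that fell. There were 3 rises without library B with Nanog (2.38%, beside 5.88% of all), 3 without library C without Nanog (2.36%, beside 6.65%) and 5 without library C with Nanog (3.97%, beside 6.49%). With all libraries thinned to the same total, an alternative chosen after seeing the data, 5 regions rose and 11 fell among 107 tested (4.67% and 10.3%, beside 7.30% and 6.92% of all 70943 regions tested so).

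**Figure D1:**
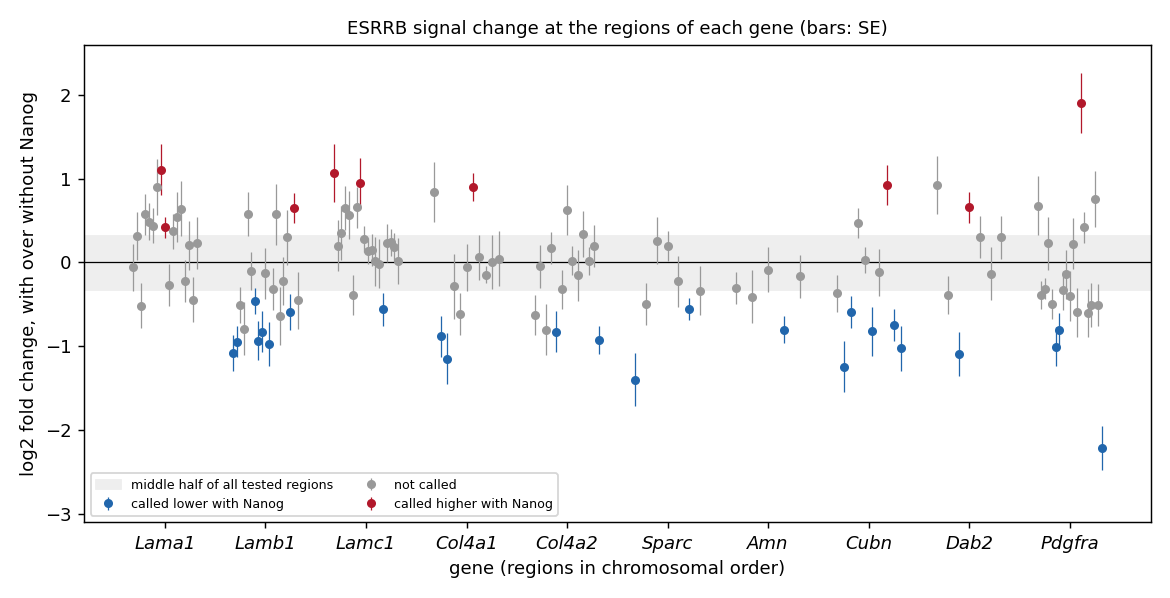
Log2 fold change of ESRRB signal, with over without Nanog, at each tested region, grouped by gene in chromosomal order; bars are the standard error, and the grey band spans the quartiles of all tested regions. The points run from -2.22 to 1.90, both extremes belong to Pdgfra, and Lamb1 (7), Cubn (5) and Pdgfra (3) hold most of the 24 falls.

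Laminins assemble from an alpha, a beta and a gamma chain, and the product of Lama1, Lamb1 and Lamc1 is the trimer that starts embryonic basement membranes. Summed over all regions of a gene, ESRRB signal rose with Nanog at Lama1 and Lamc1 and fell at Lamb1. Among 15996 genes tested by their sums, 11.8% rose and 11.9% fell. How often the lines did not overlap in the sums of all genes was not counted.

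Lama1 (chr17:67697127-67822645) had 17 regions, of which 2 rose, 0 fell and 15 did not pass. Its sums were 154.5, 164 and 133 CPM without Nanog and 175, 213 and 184 CPM with Nanog, so every library with Nanog was above every library without. The log2 fold change of the sum was 0.35 ± 0.09 (SE, edgeR adjusted p = 0.00613, n = 3 against 3). The call was lost without library B with Nanog (edgeR adjusted p = 0.0662) and without library C without Nanog (0.0613). The strongest region of Lama1, chr17:67696729-67698738, covered the lower-coordinate end of the gene. It read 45.9, 41.8 and 41.2 CPM without Nanog and 53.5, 60.5 and 57.3 CPM with Nanog. Its log2 fold change was 0.42 ± 0.12 (SE, edgeR adjusted p = 0.0149). Next to it, chr17:67695982-67696338 rose from 3.59 ± 1.36 to 7.45 ± 2.01 CPM (SD, n = 3 each; log2 fold change 1.11, edgeR adjusted p = 0.0102). Leaving out library B with Nanog or library C without Nanog ended both calls, with adjusted p up to 0.111, and leaving out library C with Nanog ended the first. Both calls were also lost in thinned libraries (edgeR adjusted p = 0.0699 and 0.135). Over the 17 regions, 12 had a log2 fold change above 0 and 5 below.

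Lamb1 (chr12:31265146-31329644) had 19 regions, the joint highest number of the 10 genes, of which 1 rose and 7 fell. Its sums were 196, 253 and 199.9 CPM without Nanog and 164, 170.0 and 176 CPM with Nanog, with no overlap. The log2 fold change was -0.35 ± 0.08 (SE, edgeR adjusted p = 0.00470), and -0.22 without library B without Nanog. Counting only the 7 regions inside the gene, the fold change was 0.04 (adjusted p = 0.820), so the fall of the sum lay in the 12 upstream regions. Of these 12, 6 fell and 6 did not pass. The farthest, chr12:31177964-31178362 at 87.0 kb upstream, read 14.2, 13.2 and 13.3 CPM without Nanog and 5.98, 6.72 and 6.37 CPM with Nanog. ESRRB signal there changed by -1.08 ± 0.21 on the log2 scale (SE, edgeR adjusted p = 5.25e-04). At 47.5 kb upstream, chr12:31217300-31217938 read 25.7, 28.6 and 18.8 CPM without Nanog and 12.1, 11.3 and 14.0 CPM with Nanog (log2 fold change -0.95, edgeR adjusted p = 5.02e-04). In both regions every library with Nanog lay below every library without.

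The strongest Lamb1 region lay at 35.9 kb upstream, chr12:31228833-31229732. It fell from 34.8 ± 2.2 to 25.3 ± 5.8 CPM (SD, n = 3 each; log2 fold change -0.46, edgeR adjusted p = 0.0396), and leaving out any library other than C with Nanog ended this call (adjusted p up to 0.238). The call was also lost in thinned libraries (edgeR adjusted p = 0.137) and with column totals in place of TMM scaling (0.059). With DESeq2 in place of edgeR its adjusted p was 0.0994. The region at 25.8 kb upstream and its closest neighbour on the gene's side fell by 0.93 and 0.83 on the log2 scale (edgeR adjusted p = 0.00446 and 0.0180). The libraries of the lines overlapped at the second of them, whose call was lost without library A or C with Nanog or library B or C without Nanog (adjusted p up to 0.101). That call was also lost with DESeq2 (adjusted p = 0.0526) and in thinned libraries (edgeR adjusted p = 0.0665). The region at 1.5 kb upstream fell from 7.87 ± 1.89 to 3.89 ± 0.10 CPM (SD, n = 3 each; log2 fold change -0.97, edgeR adjusted p = 0.00979), a call lost in thinned libraries (0.0692). In contrast, the region in the promoter window printed above, chr12:31264790-31265299, held 8.23 ± 2.84 and 6.59 ± 0.36 CPM and did not pass (edgeR adjusted p = 0.408). The next one, 0.4 kb inside the gene, held 1.53 and 2.39 CPM and did not pass either (edgeR adjusted p = 0.294). Inside Lamb1, chr12:31293516-31294476 at 28.8 kb rose, with 13.4, 19.4 and 13.1 CPM without Nanog and 23.0, 28.0 and 20.8 CPM with Nanog (log2 fold change 0.65, edgeR adjusted p = 0.0121). Closer to the start, at 24.2 kb, chr12:31289176-31289600 fell from 15.7 ± 2.8 to 10.5 ± 2.7 CPM (log2 fold change -0.59, edgeR adjusted p = 0.0487). The rise was lost without library B with Nanog or library A or C without Nanog (adjusted p up to 0.101), and the fall in 4 of the 6 libraries left out (adjusted p up to 0.257), namely A and B with Nanog and A and C without. With DESeq2 the fall was also lost (adjusted p = 0.116). In edgeR it was lost with column totals (0.0657), a loess offset (0.0573), autosomes alone (0.0519) and no filter (0.0515).

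Lamc1 (chr1:153218922-153332786) had 18 regions, of which 2 rose, 1 fell and 15 did not pass. Its sums were 192, 219 and 180.1 CPM without Nanog and 226, 234 and 225 CPM with Nanog, with the lines apart in every library. The log2 fold change was 0.22 ± 0.07 (SE, edgeR adjusted p = 0.0374). This call was kept on leaving out library B without Nanog. Leaving out each other library gave adjusted p from 0.0910 to 0.241, with 0.14 as the lowest fold change, without library C without Nanog. With DESeq2 the call was lost too (adjusted p = 0.0825). The strongest region, chr1:153320189-153321057 inside the gene, held 23.9, 24.4 and 19.4 CPM without Nanog and 25.5, 28.4 and 27.4 CPM with Nanog and did not pass (log2 fold change 0.28, edgeR adjusted p = 0.217). The rises were at weak regions, chr1:153216819-153217089 at 2.0 kb outside the lower-coordinate end (2.21 to 4.43 CPM, log2 fold change 1.07, edgeR adjusted p = 0.0270) and chr1:153317417-153317628 inside the gene (3.06 to 5.83 CPM, 0.95, adjusted p = 0.0265). The fall, chr1:153358439-153358972 at 25.9 kb outside the other end, went from 18.2 ± 4.7 to 12.3 ± 1.4 CPM (log2 fold change -0.56, edgeR adjusted p = 0.0454). Each of these 3 calls was lost on leaving out 1 library, and with DESeq2 (adjusted p = 0.132, 0.107 and 0.100, in that order). The first was lost without B or C of either line (adjusted p up to 0.131) and the second without A or C of either line (up to 0.165) and in thinned libraries (0.40, 0.558). The fall was lost without any library other than C without Nanog (up to 0.296), and its fold change was -0.31 without library B without Nanog. It was also lost in thinned libraries (log2 fold change -0.31, edgeR adjusted p = 0.417). Its adjusted p was 0.0510 with a loess offset and 0.065 with column totals (edgeR), and 0.0522 with voom. At the higher-coordinate end of Lamc1, regions 143 and 743 bases outside the gene held 14.8 and 5.08 CPM without Nanog and 16.6 and 5.01 CPM with Nanog, and neither passed.

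**Figure D2:**
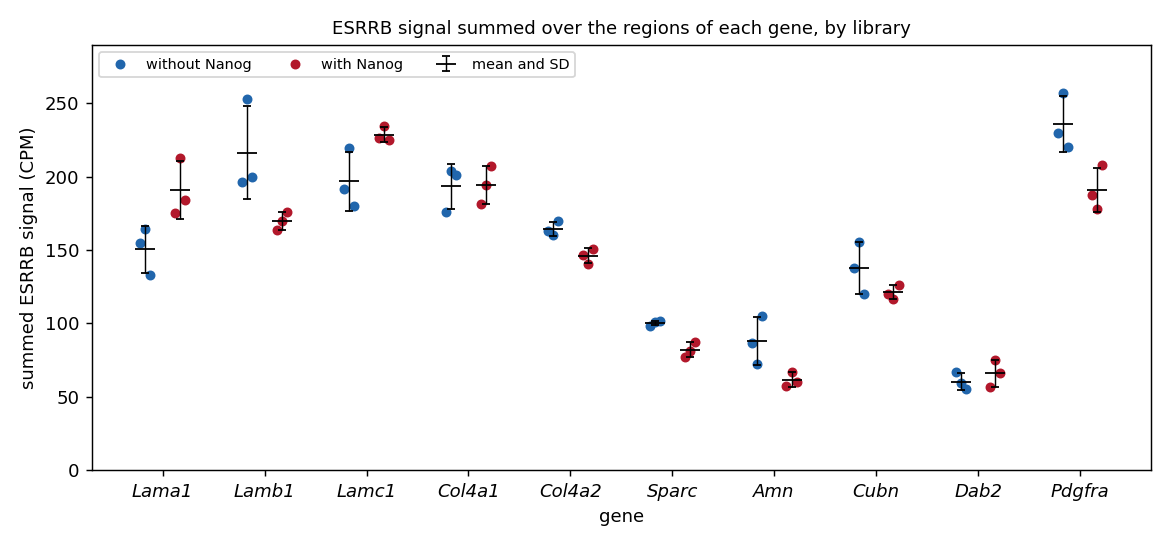
ESRRB signal summed over the regions of each gene, in CPM, for each of the 6 libraries (points) with the mean and SD of each line. The groups do not overlap at Lama1 and Lamc1, where the libraries with Nanog are higher, nor at Lamb1, Sparc, Amn, Pdgfra and Col4a2, where they are lower. The Col4a2 difference did not pass the test. The share of gene sums without overlap was not counted over all genes. The 33.6% found for single regions cannot stand in for it, since a sum can take in many regions.

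Col4a1 (chr8:11198423-11312889) and Col4a2 (chr8:11312805-11449287) encode the chains that wind into the main collagen trimer of basement membranes, and they lie head to head. Neither sum passed the test. Col4a1 had sums of 176, 204 and 201 CPM without Nanog and 181, 194 and 207 CPM with Nanog (log2 fold change 0.00, edgeR adjusted p = 0.994). Col4a2 had sums of 163, 160.5 and 169.9 CPM without Nanog and 147, 141 and 151 CPM with Nanog, a log2 fold change of -0.17 ± 0.07 (SE, edgeR adjusted p = 0.0955) with no overlap between the lines. With the column letters as a block, its adjusted p was 0.0398.

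Within Col4a1, 1 of 11 regions rose and 2 fell, and the changes among its regions were unequal beyond the spread of the libraries (edgeR diffSpliceDGE, adjusted p = 9.81e-06). Its strongest region, chr8:11308480-11309876 at 3.7 kb inside the gene, was stronger than 99.7% of all regions by mean log-CPM. It read 107, 117 and 119.0 CPM without Nanog and 93.8, 104 and 113 CPM with Nanog, which overlapped (log2 fold change -0.15, edgeR adjusted p = 0.346). By contrast, chr8:11279190-11280102 at 33.2 kb inside the gene read 19.8, 14.0 and 16.5 CPM without Nanog and 29.2, 30.4 and 33.3 CPM with Nanog. It rose by 0.90 ± 0.16 on the log2 scale (SE, edgeR adjusted p = 2.16e-04), and this call was kept in every alternative run. The falls were at chr8:11244026-11244184, 68.8 kb inside (5.43 to 2.41 CPM, log2 fold change -1.15, edgeR adjusted p = 0.00748), and chr8:11197312-11197588, 973 bases past the gene (8.75 to 4.71 CPM, -0.88, adjusted p = 0.0102). Both falls were lost without library C with Nanog (adjusted p = 0.0559 and 0.0568). The fall past the gene was also lost in thinned libraries (log2 fold change -0.67, edgeR adjusted p = 0.144). The pair of weak regions at the shared start, chr8:11312632-11312860 in the window printed above and chr8:11312238-11312501, held 2.61 and 3.02 CPM without Nanog and 2.92 and 3.28 CPM with Nanog. Their adjusted p were 0.944 and 0.994 (edgeR).

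Within Col4a2, 0 of 13 regions rose and 2 fell (unequal change, edgeR adjusted p = 8.02e-05). The fall with the larger signal lay 989 bases past the gene, at chr8:11449702-11450851. It read 34.3, 29.5 and 33.9 CPM without Nanog and 17.9, 13.0 and 20.8 CPM with Nanog, a log2 fold change of -0.92 ± 0.17 (SE, edgeR adjusted p = 2.42e-04) that passed in every alternative run. The other, chr8:11360657-11360924 at 48.0 kb inside, went from 8.09 to 4.57 CPM (log2 fold change -0.83, edgeR adjusted p = 0.0186). It was lost without library A or B with Nanog or library B without Nanog (edgeR adjusted p up to 0.0669), and in thinned libraries (-0.47, 0.372). With DESeq2 it was lost as well (adjusted p = 0.066). The strongest region, chr8:11430674-11431318 at 118.2 kb inside, held 25.5 ± 6.0 and 26.0 ± 2.4 CPM (SD, n = 3 each), a difference far within the spread (edgeR adjusted p = 0.958).

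Sparc (chr11:55394159-55420080) encodes a secreted glycoprotein that binds collagen IV and is among the most abundant products of parietal endoderm. Its sums were 98.6, 101.0 and 101.6 CPM without Nanog and 77.3, 81.3 and 87.6 CPM with Nanog, with a gap between the lines. The sum fell by 0.29 ± 0.09 on the log2 scale (SE, edgeR adjusted p = 0.0209). It was 0.22 (adjusted p = 0.320) when only the 2 regions inside the gene were counted, and the call was lost without library A (0.102) or B (0.0724) with Nanog. The strongest region, chr11:55428357-55429152 at 8.7 kb upstream, held 50.5% of the gene's signal without Nanog and 43.2% with Nanog. It read 44.7, 48.2 and 46.7 CPM without Nanog and 30.5, 28.9 and 35.8 CPM with Nanog (log2 fold change -0.56 ± 0.13 SE, edgeR adjusted p = 0.00328). A weaker region 19.0 kb past the gene, chr11:55375040-55375215, fell from 6.91 ± 1.66 to 2.66 ± 1.27 CPM (SD, n = 3 each; log2 fold change -1.40, edgeR adjusted p = 0.00197). Both falls passed in every alternative run in which they were tested, and the other 5 tested regions of Sparc did not pass. Unequal change among its regions passed (edgeR adjusted p = 0.00114), though not without library B with Nanog (0.108).

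Amn, Cubn and Dab2 belong to protein uptake. Amnionless, the product of Amn, anchors cubilin, the product of Cubn, in the membrane, and the pair forms a receptor for vitamin B12 with intrinsic factor and for other ligands. DAB2 is the clathrin adaptor that brings such receptors into the cell.

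Amn (chr12:111271096-111276426) was the shortest gene, with 5 regions, and all 5 had a log2 fold change below 0. Its sums were 86.5, 72.2 and 105.0 CPM without Nanog and 57.2, 67.1 and 60.4 CPM with Nanog, without overlap. The log2 fold change was -0.53 ± 0.12 (SE, edgeR adjusted p = 0.00263), and it was the single gene sum of the 10 whose call passed in every alternative run. Of its regions, 1 fell: chr12:111274730-111275707, 4.1 kb inside the gene, which held 60.5% of the signal without Nanog. It read 47.4, 33.9 and 65.3 CPM without Nanog and 27.7, 28.2 and 29.2 CPM with Nanog (log2 fold change -0.80 ± 0.16 SE, edgeR adjusted p = 6.24e-04). Library C without Nanog was the highest, and without it the fold change was -0.49 (adjusted p = 0.0397). The region in the promoter window printed above, chr12:111270703-111271069, held 6.03 ± 0.96 and 5.55 ± 1.51 CPM (SD, n = 3 each) and did not pass (edgeR adjusted p = 0.868). A region inside the gene near its end, chr12:111275788-111276259, held 6.18 and 5.61 CPM and did not pass (edgeR adjusted p = 0.699). Unequal change among the 5 regions did not pass (edgeR adjusted p = 0.125), but did without library B without Nanog (0.00570).

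Cubn (chr2:13276338-13491876) had 10 regions, of which 1 rose, 5 fell and 4 did not pass. Its sum did not pass, with 138, 155 and 120.1 CPM without Nanog and 120.4, 117 and 126 CPM with Nanog (log2 fold change -0.18, edgeR adjusted p = 0.161), and ranged from -0.08 without library B without Nanog (0.534) to -0.29 without library C without Nanog (0.0265), where it passed. Both upstream regions fell. At 4.6 kb upstream, chr2:13496169-13496782 read 18.6, 24.1 and 15.7 CPM without Nanog and 10.5, 10.9 and 13.1 CPM with Nanog (log2 fold change -0.75, edgeR adjusted p = 0.00695), a call lost in thinned libraries (0.139). At 5.6 kb upstream, chr2:13497375-13497651 fell from 8.98 ± 3.65 to 4.38 ± 0.55 CPM (SD, n = 3 each; -1.03, edgeR adjusted p = 0.00779), a call lost without library B without Nanog (-0.63, 0.107) and in thinned libraries (0.0736). Inside the gene, regions fell at 97.5, 152.9 and 188.3 kb from the start, with log2 fold changes of -0.82, -0.59 and -1.24 (edgeR adjusted p = 0.0452, 0.0245 and 0.00376). The last of these passed in every alternative run in which it was tested. The first was lost without library A or B with Nanog or B without Nanog (adjusted p up to 0.243, log2 fold change -0.52 without B without Nanog). The second was lost without library A or B with Nanog or A or C without Nanog (up to 0.153). Both were also lost with DESeq2 (adjusted p = 0.142 and 0.0596) and in thinned libraries (edgeR adjusted p = 0.17 and 0.107). The first was lost with column totals (edgeR adjusted p = 0.0575) and a loess offset (0.0580) too. The rise, chr2:13398913-13399334 at 92.8 kb, read 7.83, 8.13 and 4.51 CPM without Nanog and 11.1, 14.4 and 11.9 CPM with Nanog (log2 fold change 0.93, edgeR adjusted p = 0.00680), and was lost without library B with Nanog or C without Nanog (up to 0.0892). It was lost in thinned libraries too (edgeR adjusted p = 0.0731). The strongest region, chr2:13372216-13372863 at 119.3 kb, held 28.5 ± 4.7 and 28.9 ± 0.4 CPM and did not pass (edgeR adjusted p = 0.918). Unequal change among the 10 regions passed (edgeR adjusted p = 5.49e-08).

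Dab2 (chr15:6299788-6440715) had sums of 66.8, 59.2 and 55.3 CPM without Nanog and 56.7, 74.8 and 66.5 CPM with Nanog, which overlapped (log2 fold change 0.14, edgeR adjusted p = 0.403). Its mean sum was the lowest of the 10 genes without Nanog (60.4 CPM). With Nanog, the mean sum of Amn was lower (61.6 CPM, against 66.0 CPM for Dab2). The 7 regions of Dab2 held 1 rise and 1 fall, both upstream, and their changes were unequal (edgeR adjusted p = 4.94e-05). The strongest, chr15:6259837-6260339 at 39.7 kb upstream, read 13.1, 17.1 and 13.7 CPM without Nanog and 17.5, 27.6 and 24.0 CPM with Nanog (log2 fold change 0.66, edgeR adjusted p = 0.0135). This rise was lost without library A or C without Nanog or B or C with Nanog (edgeR adjusted p up to 0.120), and in thinned libraries (0.0619). At 55.4 kb upstream, chr15:6244255-6244555 read 10.1, 12.6 and 7.06 CPM without Nanog and 3.79, 4.13 and 5.61 CPM with Nanog (log2 fold change -1.10, edgeR adjusted p = 0.00334). This fall passed in every alternative run in which it was tested. Counting only regions within 50 kb, the Dab2 sum rose by 0.44 on the log2 scale (edgeR adjusted p = 0.0241). That limit left out the fall and the uncalled regions at 62.0 kb (11.1 to 8.46 CPM) and 98.4 kb upstream (1.65 to 3.22 CPM). The region in the window of the internal start printed above, chr15:6386693-6386966, held 10.4, 3.93 and 3.92 CPM without Nanog and 3.79, 6.72 and 4.71 CPM with Nanog and did not pass (edgeR adjusted p = 0.821).

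Pdgfra (chr5:75151322-75198206) encodes the receptor tyrosine kinase for PDGF ligands that marks the primitive endoderm from its first appearance. Its 19 regions held the largest fall and the largest rise of the 127 regions. The sums were 229.8, 257 and 220.5 CPM without Nanog and 187.5, 178 and 208 CPM with Nanog, with no overlap. The sum changed by -0.30 ± 0.08 on the log2 scale (SE, edgeR adjusted p = 0.00646), and the call was lost without library B with Nanog (0.0525) and with the 5 regions inside the gene alone (-0.29, 0.124). Among the regions, 1 rose and 3 fell, and unequal change had the lowest adjusted p of the 10 genes (edgeR, 3.75e-13).

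The largest fall lay 97.8 kb past the gene, at chr5:75295886-75296192, close to the 100 kb limit for membership. It read 11.9, 11.5 and 12.9 CPM without Nanog and 3.65, 2.12 and 2.17 CPM with Nanog, so the lowest library without Nanog was more than 3-fold above the highest with Nanog. Its log2 fold change was -2.22 ± 0.26 (SE, edgeR adjusted p = 5.36e-07). The largest rise lay 7.8 kb past the gene, at chr5:75205764-75206253, with 4.47, 1.12 and 1.18 CPM without Nanog and 6.42, 6.96 and 8.92 CPM with Nanog (log2 fold change 1.90 ± 0.36 SE, edgeR adjusted p = 3.52e-04). Both calls passed in every alternative run in which they were tested. Upstream, neighbouring regions at 6.2 and 4.9 kb fell together. At 6.2 kb, chr5:75145002-75145276 went from 11.3 ± 2.0 to 5.52 ± 0.62 CPM (SD, n = 3 each; log2 fold change -1.01, edgeR adjusted p = 0.00266), and at 4.9 kb, chr5:75146114-75146791 went from 17.2 ± 3.1 to 9.75 ± 1.29 CPM (-0.81, adjusted p = 0.00474). The call at 4.9 kb was lost in thinned libraries (-0.67, adjusted p = 0.0799). The strongest region, chr5:75137046-75138288 at 13.7 kb upstream, read 51.5, 60.3 and 53.9 CPM without Nanog and 42.6, 41.3 and 49.8 CPM with Nanog. The lines did not overlap there, but the difference did not pass (log2 fold change -0.31, edgeR adjusted p = 0.0780; 0.0152 with the column letters as a block). The region just inside the start of the gene's span, chr5:75151333-75151699, held 11.4 ± 3.1 and 8.79 ± 0.70 CPM and did not pass (edgeR adjusted p = 0.336). It lies before the RefSeq promoter window of Pdgfra, chr5:75152001-75152300, which no region overlapped. The membership limit itself fell in a sparse stretch. The farthest regions inside it were at 97.8 kb from Pdgfra and at 98.4 kb from Dab2, where the log2 fold change was 0.92, and the nearest outside it were at 120.7 and 153.3 kb from Pdgfra, with log2 fold changes of 0.57 and 0.84.

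**Figure D3:**
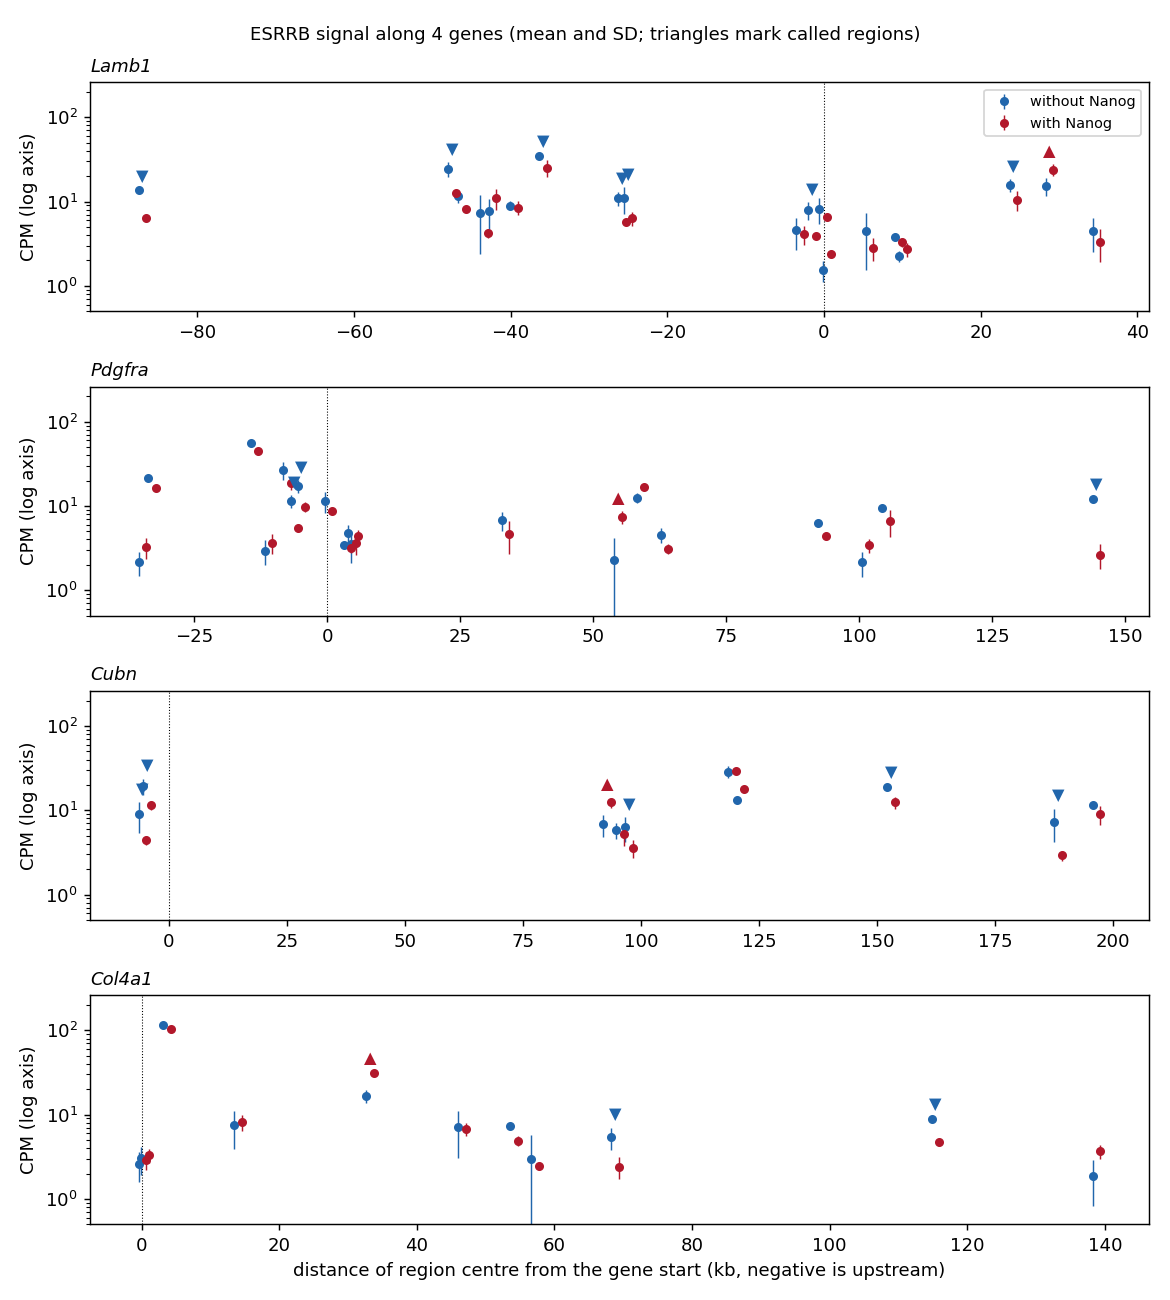
Mean ESRRB signal (CPM, log axis; bars are SD, cut at the lower edge of the axis) along Lamb1, Pdgfra, Cubn and Col4a1 against the distance of the region from the gene start in kb, with the 2 lines drawn slightly apart and triangles over called regions pointing up for rises and down for falls. At Lamb1 6 of the 12 upstream regions carry a fall, and at Pdgfra the largest rise and fall lie 54.7 and 144.7 kb from the start, past the gene's end.

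Unequal change within a gene was the common case here. It passed at 9 of the 10 genes, Amn being the exception, and at 46.2% of the 12142 genes that could be tested. The 10 genes had 5 (Amn) to 19 regions each, beside a median of 3 over all genes with a region. The part of region number in these shares was not tested. At Lama1 it was lost without library A without Nanog (edgeR adjusted p = 0.0853) and with regions of a mean count of at least 50 alone (0.966).

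The strongest regions, chosen by mean log-CPM, were ordered by signal per kb of region. They were 503 (Dab2) to 2010 (Lama1) bases wide, and dividing by width affects the order. By CPM with Nanog, the Lama1 region (57.1) stood above that of Dab2 (23.0), while per kb it stood below. Col4a1 led in both lines, with 81.8 ± 4.8 CPM per kb without Nanog and 74.1 ± 6.9 with Nanog (SD, n = 3 each), and every one of its libraries lay above those of the gene ranked next. Without Nanog, Sparc (58.5), Amn (49.96), Pdgfra (44.4), Cubn (44.0), Col4a2 (39.6) and Lamb1 (38.7 CPM per kb) followed, each overlapping its neighbour. Dab2 (29.1), Lamc1 (26.0) and Lama1 (21.4 CPM per kb) came last, and all libraries of Lamb1 were above those of Dab2. With Nanog, the order after Col4a1 was Dab2 (45.8), Cubn (44.6), Col4a2 (40.3), Sparc (39.9) and Pdgfra (35.9 CPM per kb), then Lamc1 (31.2), Amn (29.0), Lama1 (28.4) and Lamb1 (28.2). Pdgfra was above Lamc1 in every library, and the other neighbours overlapped. Per kb, Dab2 thus stood second with Nanog and in place 8 without. Sparc and Amn, in places 2 and 3 without Nanog, stood in places 5 and 8 with Nanog.

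The position of the regions and their place in the deposited peak lists were not used to choose the genes. The rule did keep only regions within 100 kb. Of the 127 regions, 65 lay inside a gene and 62 outside. The share inside was 51.2%, against 57.0% of all regions within 100 kb of a gene and 51.4% of all regions. Within 1 kb of an end of the gene lay 13, or 10.2%, against 14.5% and 13.1%. Falls numbered 17 of 61 tested regions outside the genes and 7 of 65 inside. Over all regions the shares were 11.6% and 8.06%, and those outside include regions farther than 100 kb from a gene. Rises numbered 4 of 61 outside and 5 of 65 inside, beside 9.07% and 9.76% of all regions. For the 8 genes with a known strand, 12 of 32 tested upstream regions fell and 1 rose, beside 11.3% and 7.98% of all upstream regions. Of the 12 upstream falls, 6 were at Lamb1. Of 47 regions inside these genes, 7 fell and 3 rose (8.17% and 9.56% of all), and of 12 downstream regions 4 fell and 1 rose (12.3% and 9.01% of all). These shares describe the regions, and differences between them were not tested.

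Peaks of both lines overlapped 56 of the 127 regions, peaks with Nanog alone 69 and peaks without Nanog alone 2; for all regions the numbers were 32615, 52891 and 695. Among the 56 in both lists, 20 fell and 5 rose, beside 20.8% and 7.40% of all such regions. Among the 68 tested regions in the list with Nanog alone, 4 rose and 2 fell, beside 10.8% and 1.92%. Both regions in the list without Nanog alone fell, the one 97.8 kb past Pdgfra and the one 19.0 kb past Sparc, beside 79.5% of all regions in that list. Libraries without Nanog were the shallower ones, and the part of depth in which list holds a region was not tested.

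**Figure D4:**
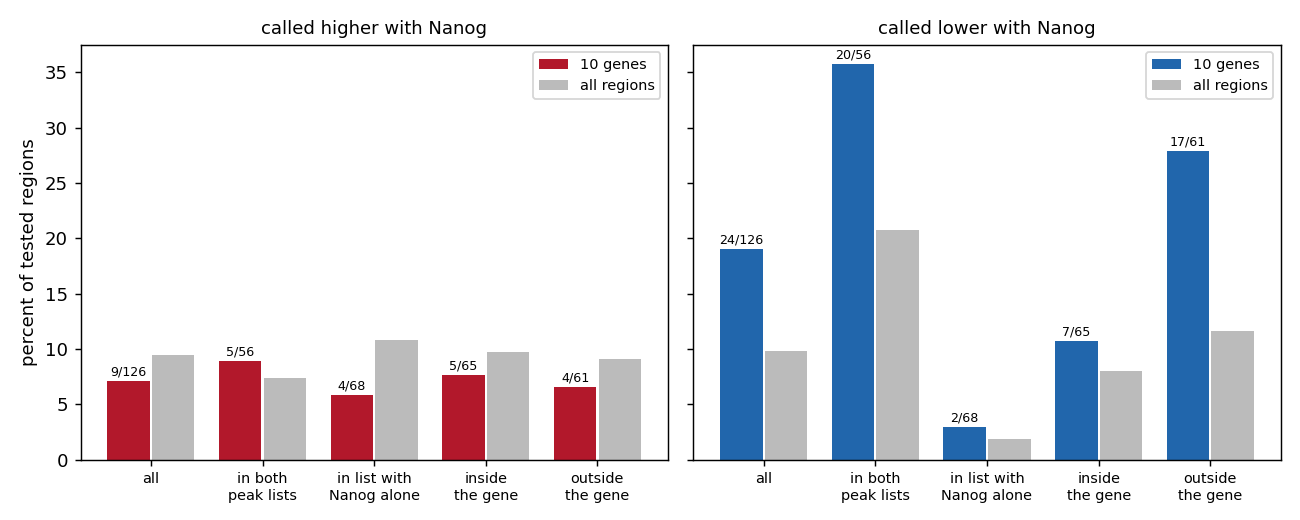
Percent of tested regions called higher (left) or lower (right) with Nanog, for the regions of the 10 genes (coloured bars, with called and tested numbers above) and for all regions of the same class (grey bars). Falls took 19.0% of the regions of the 10 genes and 9.78% of all regions, and rises 7.14% and 9.42%.

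Other genes of the same pathways were taken by the same distance rule. Among 26 other basement membrane genes with a region, 20 of 167 tested regions rose and 19 fell, with a median log2 fold change of -0.01. The 3 with the smallest adjusted p were at P4ha1, a prolyl hydroxylase subunit needed for collagen folding (6.66 to 32.1 CPM, log2 fold change 2.34), Col18a1, a basement membrane collagen (10.3 to 2.17 CPM, -2.24), and Sparcl1, a relative of Sparc (4.76 to 14.8 CPM, 1.74). Their edgeR adjusted p were 5.03e-08, 1.02e-06 and 3.23e-05. Of 130 tested regions at 15 matrix receptor genes, 14 rose and 10 fell. Here the leading regions were at integrin subunit genes, Itgb1 (15.0 to 6.97 CPM, log2 fold change -1.08), Itgav (2.30 to 6.49 CPM, 1.54) and Itga1 (15.7 to 7.98 CPM, -0.96), with edgeR adjusted p of 4.29e-04, 6.72e-04 and 0.00134.

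Of 100 regions at 12 other genes for endocytic receptors and adaptors, 8 rose and 5 fell, and the leading 3 were all rises inside Dab1, the neuronal relative of Dab2 (log2 fold changes 1.15, 1.95 and 0.84; edgeR adjusted p 4.46e-04 to 6.58e-04). Among 107 tested regions of 11 genes of PDGF signalling and its receptor family, 15 rose and 10 fell. Signal rose at Kit, the receptor gene next in the same cluster as Pdgfra (7.27 to 35.4 CPM, log2 fold change 2.24), and at the ligand gene Pdgfc (6.22 to 19.7 CPM, 1.65), and fell at the ligand gene Pdgfa (15.1 to 4.49 CPM, -1.73). The edgeR adjusted p were 1.38e-08, 2.90e-06 and 4.89e-06. The 9 transcription factor genes of the primitive endoderm had 1 rise and 12 falls among 53 tested regions, with a median log2 fold change of -0.29. The leading falls were at Foxa2 (39.0 to 19.7 CPM, log2 fold change -0.98) and Gata6 (32.9 to 18.3 CPM, -0.86; edgeR adjusted p = 3.30e-05 and 2.53e-04).

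For context, 13 genes of the embryonic stem cell state had 38 rises and 9 falls among 222 tested regions (median log2 fold change 0.21), led by a pair of regions near Klf4 (49.9 to 103 CPM and 34.6 to 72.6 CPM) and one in Esrrb (29.3 to 58.9 CPM; edgeR adjusted p 9.59e-08 to 2.63e-06). The 27 regions of 8 fibroblast genes, listed because feeder cells could add chromatin, had 2 rises and 4 falls (Pdgfrb stands in this list and in that of PDGF signalling). They were led by opposite changes at Thy1 (31.1 to 54.2 CPM and 10.7 to 4.57 CPM) and a fall at Col1a2 (13.1 to 7.93 CPM; edgeR adjusted p 4.96e-05 to 0.0210). The 10 genes, at 9 rises and 24 falls, thus had more falls than rises, as did the transcription factor genes and the fibroblast genes. Falls took 19.0%, 22.6% and 14.8% of their tested regions and rises 7.14%, 1.89% and 7.41%. The basement membrane, matrix receptor, endocytic, PDGF and stem cell lists had more rises. Rises took 12.0%, 10.8%, 8.0%, 14.0% and 17.1% there, and falls 11.4%, 7.69%, 5.0%, 9.35% and 4.05%, in that order. Among all tested regions 9.42% rose and 9.78% fell, and no test compared the lists.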

How the data were processed

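ESRRB ChIP-seq in 12 mouse embryonic stem cell samples was grouped by the sample titles. The deposited table gives raw counts of reads, whole numbers that the authors left unscaled, for each region and each of the 6 ChIP libraries, and the deposited peak lists hold positions alone, 1 list per line. Per the submitters' processing notes, the build was mm10 and the tools included MACS2, bedtools 2.26.0, deepTools, Bowtie2, SAMtools 1.4.1 and bcl2fastq 2.19.1. The read counter, peak threshold and treatment of duplicates were not given in the sources used here. As the table has no input column, signal is not corrected for input. Column letters A, B and C match a line and no single sample.

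Each region was assigned to the nearest of 21900 protein-coding genes of RefSeq GRCm38.p6 by the distance of its centre to the gene's span. Coordinates are 1-based. Counts were scaled by TMM, kept by filterByExpr and tested with glmQLFit and glmQLFTest (edgeR 4.0.16 in R 4.3.3) over the whole table, with the line as sole term. Gene sums used the same test, and unequal change among a gene's regions used diffSpliceDGE. CPM used the TMM factors, and log-CPM a prior count of 2. The scripts were tested on simulated data. The members and gene lists were chosen with earlier results of these data known. Values are given for each gene's sum, its strongest region by mean log-CPM, every called region, every region within 1 kb of a gene end, promoter windows that a region overlaps, and up to 3 regions of smallest adjusted p in each other list. For 1 region that this rule takes, values are not reported here. Alternatives were RLE, column totals, a loess offset, DESeq2 1.42.0, voom (limma 3.58.1), other filters, autosomes alone, other distances and overlaps, a block by letter and leaving out each library.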

Additional observations from a re-analysis of the deposited data

How the results depend on the processing

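Each of 16 alternatives was run on the regions. Of the 33 calls, 2 of 9 rises and 11 of 24 falls passed in every alternative in which they were tested, and 0 changed sign. No scaling moved the median log2 fold change of all regions by more than 0.1; it was -0.01 in the main analysis and 0.03 with column totals. The number of rises, 9, was 3 to 11 on leaving out 1 library, 14 with the replicate block by column letter, and 5 with thinned libraries or regions inside genes alone. The number of falls, 24, was 17 to 22 on leaving out 1 library, 28 with the block, 12 with a mean count of at least 50 (45 regions tested), 11 with thinned libraries and 7 inside genes alone. DESeq2 gave 7 rises and 17 falls. Calls over all regions moved too. Rises were 9.42% of all tested regions in the main analysis and 5.88% to 10.9% on leaving out 1 library, 11.9% with the block, 7.30% thinned, 15.1% with a mean count of at least 50 and 5.79% by DESeq2. Falls were 9.78%, then 5.64% to 10.5%, 12.8%, 6.92%, 16.7% and 6.03%. Gene sums, 2 higher and 4 lower, were 0 to 2 higher and 2 to 5 lower on leaving out 1 library, 1 higher by DESeq2 and 1 lower inside genes alone, where Sparc was at 0.22 and Lamb1 at 0.042. Within 5 kb of a gene end lay 31 regions in place of 13. The column letters were not taken as pairs: same-letter libraries correlated at 0.083, 0.223 and 0.128 in their deviations from the line means and other pairs at -0.159 to 0.0448, and no label ties a letter to a shared culture.

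Changes of sign were seen for those 2 sums and for values that did not pass the test in any setting. The Col4a1 sum, at 0.00, ranged from -0.058 to 0.049 on leaving out 1 library and was -0.00378 (DESeq2), -0.00435 (RLE), -0.00263 (voom), -0.00503 (loess), -0.00113 (mean count of at least 50), -0.0186 (inside genes), -0.00274 (within 50 kb) and -0.0146 (thinned). The Lamc1 region 743 bases outside the gene ranged from -0.23 to 0.22 on leaving out 1 library and was -0.011 by voom, -0.025 with the block and -0.062 thinned; its neighbour ranged from -0.030 to 0.33. The Amn promoter region ranged from -0.32 to 0.070 and was 0.0054 thinned. The Col4a1 region at 11312238 ranged from -0.17 to 0.35 and was -0.048 by loess, that at 11312632 from -0.15 to 0.38 with -0.062 by loess, and the strongest was 0.017 by loess. The strongest Cubn region ranged from -0.084 to 0.18 with -0.011 thinned, and that of Col4a2 from -0.15 to 0.20. The cause was not tested. Regions of the 10 genes had medians of 19 to 53 reads per library, which limits what changes near 1.5-fold could pass.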
